A study of Mus musculus with 20 samples.

Results

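Whole hindlimbs of wild-type mouse embryos were compared with whole forelimbs of the same genotype, strain and age. The series holds 20 arrays that ask which limb genes depend on Lmx1b, a LIM-homeodomain factor of the dorsal limb. The 10 wild-type arrays are described here, with their groups read from the sample descriptions. Each array profiled 1 limb of a 129Sv embryo at embryonic day 13.5, and the labels name no allele or treatment for the wild-type embryos. The 5 forelimbs are replicates 1 to 5 and the 5 hindlimbs replicates 6 to 10, and each group holds 3 right and 2 left limbs. The 10 arrays of Lmx1b -/- embryos, also 129Sv and of embryonic day 13.5, comprised 5 forelimbs and 5 hindlimbs. They were used as a second set of limbs in which the same comparison could be made. They also entered the fits over all 20 arrays, with the maturity index and for the difference between genotypes. In those arrays Lmx1b had log2 levels of 5.60, 5.73, 5.72, 5.82 and 5.75 in forelimbs and 5.88, 5.81, 6.09, 5.84 and 5.96 in hindlimbs. Its wild-type levels were 6.34, 6.48, 6.14, 6.30 and 6.26 in forelimbs and 6.44, 6.48, 6.31, 6.52 and 6.49 in hindlimbs, above all 10 knockout values. Lmx1b was named after its values were seen, and its probes were not placed against the deletion here.

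Forelimbs and hindlimbs are built from much the same parts, but their buds start with different transcription factors. Tbx5 is active in the forelimb bud, while Pitx1, Tbx4 and Isl1 are active in the hindlimb bud, and the Hox genes give each bud its position along the trunk. The forelimb bud also appears earlier than the hindlimb bud, so at a single age the hindlimb is the younger limb, and muscle, tendon and bone differentiate in it later. A difference between the limbs can therefore belong to limb identity or to developmental time.

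The deposited intensities were put on a log2 scale, on which 1 unit is a 2-fold difference, and 19936 genes were tested with limma. Array medians ranged from 4.86 to 4.96 in the wild-type arrays. Between the limbs 630 genes passed an adjusted p under 0.05, which is 3.16% of the genes tested. Of these, 128 (0.642%) were higher in hindlimbs and 502 (2.52%) were lower. The change reached 1.5-fold in 160 of the 630 genes and 2-fold in 29. In 502 of the 630 genes no hindlimb array overlapped the range of the forelimb arrays. The call of 256 genes held when each of the 10 arrays was left out in turn. Over all genes, every hindlimb was above every forelimb for 355 (1.78%) and below for 637 (3.2%). The labels do not say whether 2 limbs shared an embryo, and the p-values rest on the spread between limbs.

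The sexes of the embryos were not balanced between the limbs. Mean levels of the Y-linked genes put all 5 wild-type forelimbs, at 6.91 to 7.18, with male embryos. Hindlimb replicates 7 and 8 read 2.52 and 2.55, with Xist at 8.58 and 8.65, and were female, while the other 3 hindlimbs were male. With the 8 male arrays alone, 574 genes passed (2.88%), 84 of them higher (0.421%) and 490 lower (2.46%) in hindlimbs, and 449 of these were among the 630.

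Levels of marker genes were set beside the labels. The limb mesenchyme markers Prrx1, Prrx2, Twist1, Msx1 and Pdgfra all lay above the median gene level of 5.45 in both groups. The 5 melanoblast markers all lay below it, as did 5 of 6 markers of trunk and pelvic organs and 4 of 5 markers of neurons. Probe sets differ in brightness, so these positions describe the arrays and not amounts of RNA.

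The limb-type selector genes separated the limbs in each array. Pitx1 encodes a homeodomain factor that drives hindlimb identity. Its log2 level was 5.18, 5.28, 5.48, 5.61 and 5.46 in forelimb replicates 1 to 5 and 8.45, 8.57, 8.37, 8.57 and 8.48 in hindlimb replicates 6 to 10. Every hindlimb was above every forelimb by a wide gap, with means of 5.40 ± 0.17 and 8.49 ± 0.087 (SD, n = 5 each) for forelimbs and hindlimbs. Pitx1 was 8.51-fold higher in hindlimbs (log2 change 3.09, SE 0.0817; limma, adjusted p = 7.16e-11). Tbx5, the T-box factor that starts the forelimb bud, read 8.78, 8.61, 8.41, 8.45 and 8.26 in forelimbs and 4.60, 4.38, 4.64, 5.09 and 4.92 in hindlimbs. The groups were again far apart, in the opposite direction, and Tbx5 was 13.7-fold lower in hindlimbs (log2 change -3.77, SE 0.128; adjusted p = 9.77e-10).

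Tbx4, the T-box relative of Tbx5 used by the hindlimb bud, was at 6.02, 6.12, 6.19, 6.08 and 5.58 in forelimbs and 7.82, 7.66, 7.74, 7.66 and 7.68 in hindlimbs. Forelimb replicate 5 was the lowest of its group, and no forelimb came near the hindlimbs. Tbx4 was 3.28-fold higher in hindlimbs (log2 change 1.71, SE 0.0991; adjusted p = 7.98e-07). Isl1, a LIM-homeodomain factor of hindlimb bud initiation and of motor neurons, gave 4.69, 4.16, 4.43, 4.73 and 4.25 in forelimbs and 5.36, 5.66, 5.65, 5.95 and 5.50 in hindlimbs. The 2 groups did not overlap, and Isl1 was 2.26-fold higher in hindlimbs (log2 change 1.17, SE 0.126; adjusted p = 0.00024). All 4 selectors passed in the knockout limbs too, where 44 genes did (0.221%), with log2 changes of 2.92 for Pitx1, -4.08 for Tbx5, 1.46 for Tbx4 and 1.36 for Isl1.

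**Figure D1:**
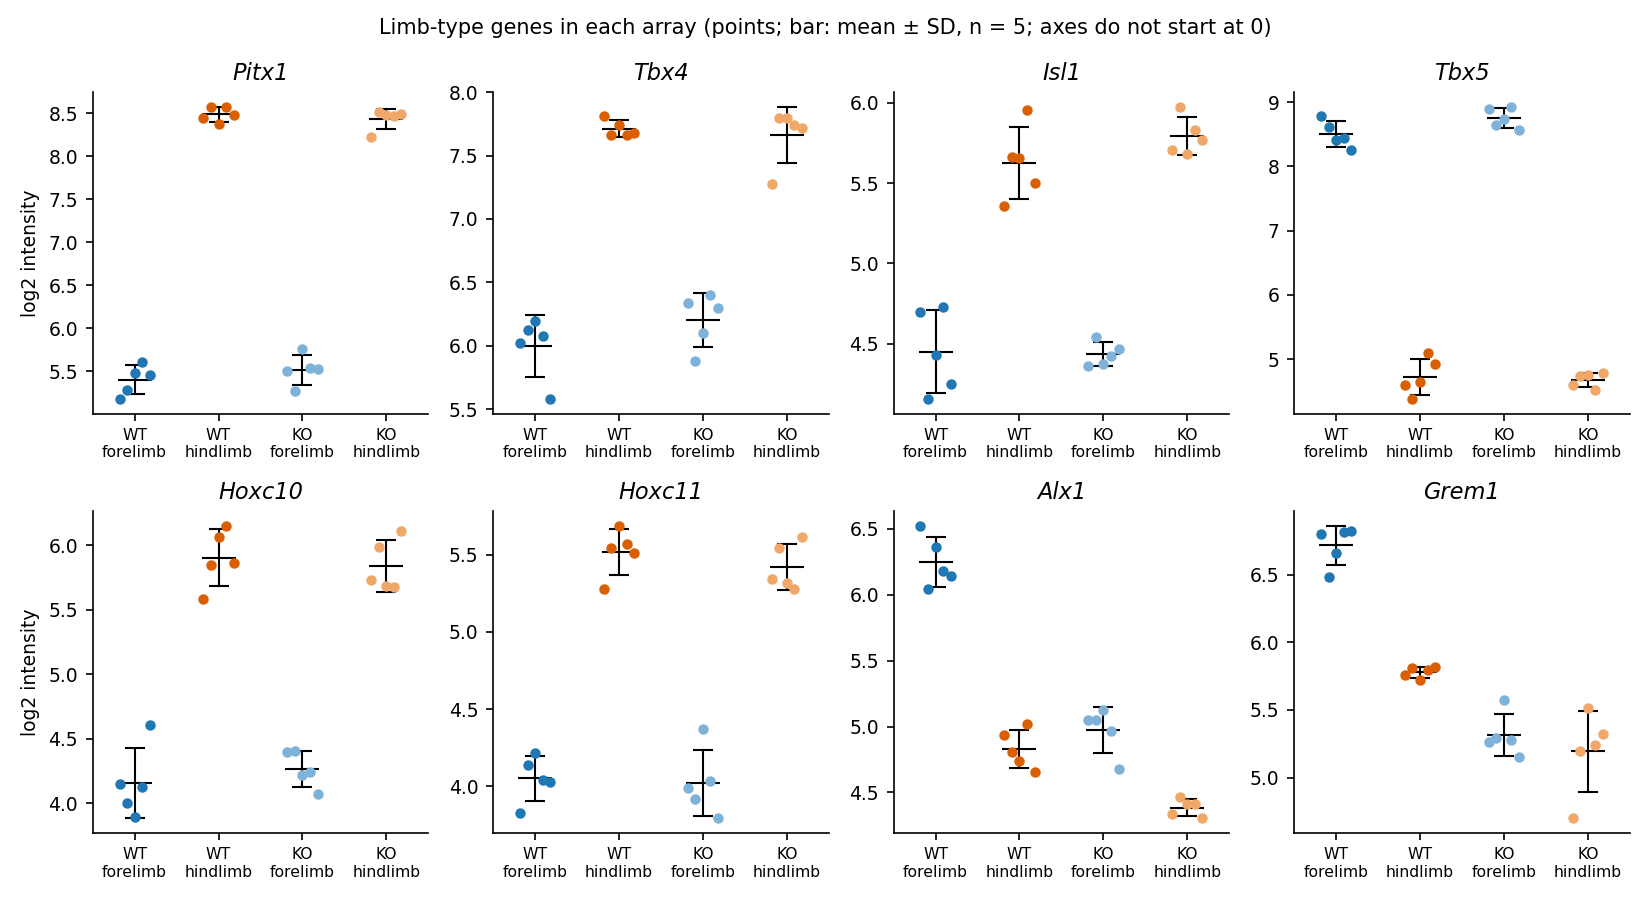
Log2 intensity of 8 limb-type genes in each of the 20 arrays, by genotype (WT, wild type; KO, Lmx1b -/-) and limb; points are arrays and bars show the mean ± SD of 5. The limbs do not overlap in the wild-type arrays for any of the 8 genes, and in knockouts the same holds for all but Grem1.

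Hox genes were measured next. They encode homeodomain factors laid out in 4 clusters, in which low-numbered genes act toward the head and high-numbered genes toward the tail and the limb tip. In the HoxC cluster the direction of the change turned along the cluster. Of its 9 genes, Hoxc9, Hoxc10 and Hoxc11 were higher in hindlimbs and Hoxc4, Hoxc5 and Hoxc6 were lower, while Hoxc8, Hoxc12 and Hoxc13 did not pass. The Hoxc10 level was 4.153, 3.999, 3.895, 4.130 and 4.603 in forelimbs and 5.58, 5.85, 6.06, 6.15 and 5.86 in hindlimbs, 3.35-fold higher (log2 change 1.75, SE 0.129; limma, adjusted p = 9.57e-06). For Hoxc11 the arrays read 3.83, 4.14, 4.22, 4.04 and 4.03 in forelimbs and 5.28, 5.54, 5.69, 5.57 and 5.51 in hindlimbs (log2 change 1.47, SE 0.0868; adjusted p = 8.01e-07). Hoxc9 changed by 0.56 (SE 0.0816; adjusted p = 0.00264). In each of these 3 genes all hindlimbs were above all forelimbs.

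The lower-numbered HoxC genes ran the other way. Hoxc5 was at 5.90, 5.75, 6.46, 6.44 and 6.33 in forelimbs and 4.39, 4.70, 4.65, 4.67 and 4.52 in hindlimbs, with no overlap and a level 3.01-fold lower in hindlimbs (log2 change -1.59, SE 0.129; limma, adjusted p = 2.43e-05). Hoxc4 changed by -0.70 (SE 0.12, adjusted p = 0.0072) and Hoxc6 by -0.51 (SE 0.11, adjusted p = 0.0239). The call of Hoxc6 was lost without forelimb replicate 3, 4 or 5 or hindlimb replicate 9 (adjusted p up to 0.0692), and it read 0.0812 in the male arrays alone. Hoxc8, which lies between both sets of genes and was added after its values were seen, had a change of -0.10 that did not pass (SE 0.123, adjusted p = 0.716). Transcripts of Hoxc4, Hoxc5 and Hoxc6 can share sequence, so their probe sets may not read 3 separate RNAs. In knockout limbs Hoxc9, Hoxc10 and Hoxc11 again passed, at 0.59, 1.57 and 1.40, while Hoxc4, Hoxc5 and Hoxc6 had values of -0.43, -1.04 and -0.45 that did not pass.

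In the HoxA cluster 4 of 10 measured genes (40%) were higher in hindlimbs and none was lower, beside 0.642% higher among all genes. Hoxa13, which patterns the hand and foot plate, was at 6.79, 6.88, 6.74, 6.82 and 6.25 in forelimbs and 7.59, 7.36, 7.35, 7.32 and 7.32 in hindlimbs, without overlap (log2 change 0.69, SE 0.107; limma, adjusted p = 0.00386). Hoxa9 changed by 0.56 (adjusted p = 0.00168), Hoxa7 by 0.37 (adjusted p = 0.0152) and Hoxa10 by 0.36 (adjusted p = 0.0416). The Hoxa10 call was kept only without forelimb replicate 1 or hindlimb replicate 8, and its adjusted p reached 0.109 in the other 8 such fits. With the male arrays alone Hoxa9 and Hoxa13 passed and Hoxa7 (0.0627) and Hoxa10 (0.126) did not. No HoxA gene passed in the knockout limbs. Hottip, a long noncoding RNA gene at the tail-side end of the cluster that was named after its values were seen, changed by 0.61 (SE 0.0938, adjusted p = 0.00363).

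The HoxD cluster had 2 of 9 measured genes (22.2%) lower in hindlimbs, both from its middle, beside 2.52% lower among all genes. Hoxd8 read 6.69, 6.55, 6.70, 6.64 and 6.54 in forelimbs and 5.74, 5.96, 6.17, 5.82 and 6.18 in hindlimbs, with every hindlimb below every forelimb (log2 change -0.65, SE 0.0871; limma, adjusted p = 0.00161). It also passed in knockouts, at -0.54 (adjusted p = 0.0129). Hoxd9 changed by -0.43 (adjusted p = 0.024) and lost its call without forelimb replicate 3 or hindlimb replicate 6, 9 or 10 (up to 0.0704). The digit genes Hoxd12 and Hoxd13 had changes of 0.43 (SE 0.153, adjusted p = 0.158) and 0.55 (SE 0.169, adjusted p = 0.0991) that did not pass. Of 9 HoxB genes, Hoxb2 alone passed, at -0.46 (adjusted p = 0.0262), and it lost the call without forelimb replicate 3, 4 or 5 or hindlimb replicate 6 or 7 (up to 0.0795).

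**Figure D2:**
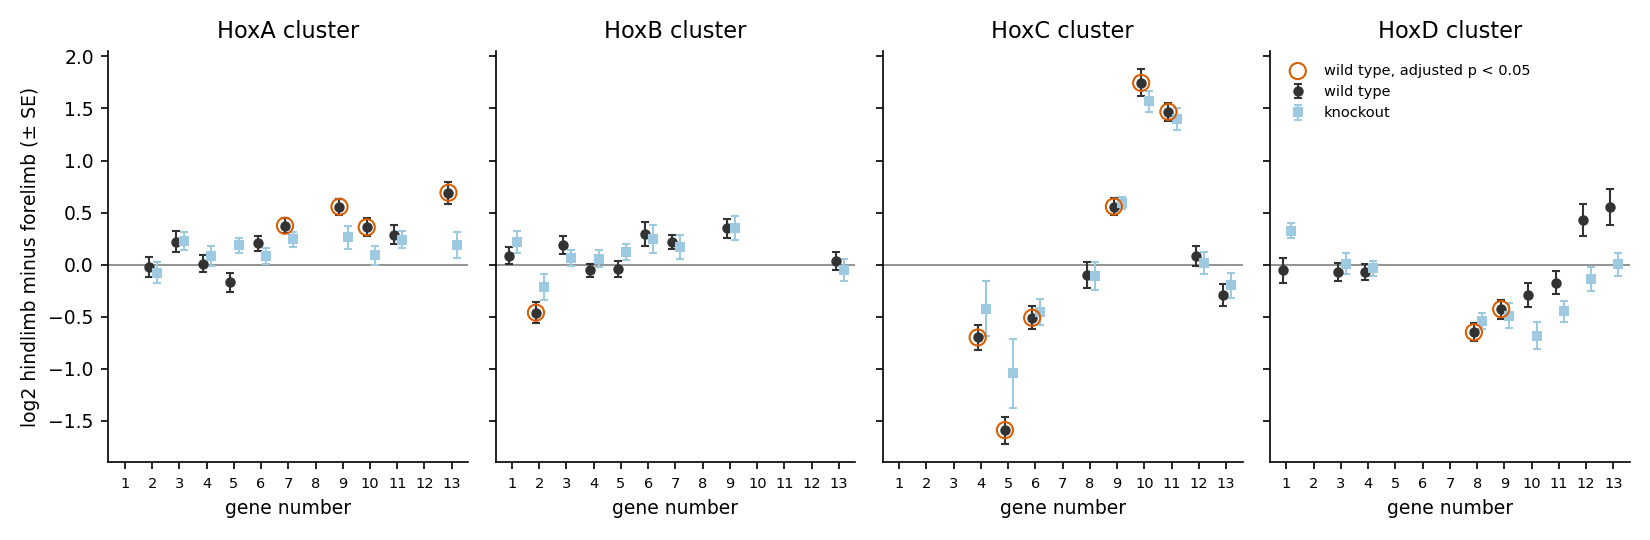
Log2 change, hindlimb minus forelimb, of the measured genes of the 4 Hox clusters against their gene number, ± SE, in wild-type limbs (dark circles, ringed where the adjusted p was under 0.05) and knockout limbs (pale squares). The HoxC changes turn from -1.59 at Hoxc5 to 1.75 at Hoxc10.

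The clusters also carry the miR-196 genes, whose microRNA is known from hindlimb buds and pairs with messages of Hox genes such as Hoxb8. Their mature sequences are shown because the 2 forms have the same seed, bases 2 to 8 in capitals, and so cannot be told apart by seed matches. Mir196a-1 on chr11:96265187-96265208 (plus strand) and Mir196a-2 on chr15:102973365-102973386 (plus strand) give the same 22 bases, and Mir196b lies on chr6:52230129-52230150 (minus strand). Sequences and positions are those of RefSeq on GRCm38.p6, and the forms differ by A12C, from miR-196a to miR-196b, counted from the 5′ end.
miR-196a-5p: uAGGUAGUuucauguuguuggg
miR-196b-5p: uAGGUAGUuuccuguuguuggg

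Of the 3 genes, Mir196a-1 in the HoxB cluster differed between the limbs. These genes were named after their values were seen. Mir196a-1 read 2.92, 3.03, 2.90, 2.78 and 2.58 in forelimbs and 3.49, 3.74, 3.90, 3.73 and 3.76 in hindlimbs, with all hindlimbs above all forelimbs (log2 change 0.88, SE 0.0915; limma, adjusted p = 0.000181). It passed in the knockouts too, at 0.62 (adjusted p = 0.00157). Mir196a-2 in the HoxC cluster had a change of 0.23 (SE 0.177, adjusted p = 0.538) and Mir196b in the HoxA cluster one of 0.15 (SE 0.126, adjusted p = 0.578). The forelimb mean of Mir196a-1, at 2.84, was below the 10th percentile of gene levels, 3.31, and the probe set does not separate the mature microRNA from longer RNA of the same place.

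Factors of the girdle and proximal limb changed in both directions, 3 of 24 higher and 4 lower in hindlimbs (29.2% in all, beside 3.16% of all genes). Alx1, a homeobox gene of limb and face mesenchyme, was at 6.52, 6.04, 6.36, 6.18 and 6.14 in forelimbs and 4.94, 4.81, 4.74, 5.02 and 4.65 in hindlimbs. The groups lay far apart, and Alx1 was 2.67-fold lower in hindlimbs (log2 change -1.42, SE 0.0957; limma, adjusted p = 3.52e-06). Tbx18, a T-box gene of proximal mesenchyme, read 9.08, 9.03, 8.82, 8.73 and 8.89 and 7.95, 8.21, 8.05, 8.19 and 8.06 in the same order of limbs, also without overlap (log2 change -0.82, SE 0.0781; adjusted p = 0.000108). Prrx2, a paired-type homeobox gene of limb mesenchyme, was higher by 0.44 (SE 0.0768, adjusted p = 0.00822). Pax1, a gene of the pectoral girdle, changed by -0.33 (adjusted p = 0.0409), Emx2, a homeobox gene needed for the shoulder blade, by -0.37 (0.0414), Lhx9 by 0.65 (0.0462) and Lhx2 by 0.42 (0.0469). These 4 calls were near the threshold and were lost in most of the 10 fits without 1 array. Lhx2 was named after its values were seen. Pax1 and Lhx9 kept theirs only without forelimb replicate 1, Lhx2 without forelimb replicate 1 or 4, and Emx2 without forelimb replicate 2 or hindlimb replicate 7, and none of the 4 passed in the male arrays alone (0.0561 to 0.139).

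Of 14 genes that pattern the limb from thumb to little finger side, Tbx3 alone passed (7.14%). It encodes a T-box factor of the limb margins, and its level was 6.91, 6.81, 6.98, 7.07 and 7.04 in forelimbs and 6.16, 6.28, 6.48, 6.27 and 6.42 in hindlimbs (log2 change -0.64, SE 0.0748; limma, adjusted p = 0.00054). It was also lower in knockout hindlimbs, at -0.61 (adjusted p = 0.00291). Tbx18 passed there as well, at -0.89 (adjusted p = 0.0124).

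Signalling genes changed in both directions. Of 26 BMP and GDF genes and their antagonists, 5 passed (19.2%, against 3.16% of all genes): Msx1 was higher and Grem1, Bmp5, Bmp3 and Fst were lower in hindlimbs. Grem1 encodes gremlin, a secreted BMP antagonist that keeps the signalling ridge active, and it read 6.80, 6.49, 6.66, 6.81 and 6.82 in forelimbs and 5.75, 5.81, 5.72, 5.79 and 5.82 in hindlimbs. The hindlimb arrays were nearly level and all below the forelimbs, with Grem1 1.91-fold lower (log2 change -0.94, SE 0.071; limma, adjusted p = 1.11e-05). Msx1, a homeobox gene that answers to BMP in the distal limb, changed by 0.64 (SE 0.121, adjusted p = 0.0126), and the BMP ligand gene Bmp5 by -0.58 (SE 0.103, adjusted p = 0.00873). Bmp3 (-0.27) and Fst (-0.29), which encodes follistatin, lost their calls in 8 and 9 of the 10 fits without 1 array.

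The retinoic acid list, of 16 genes, held 1 call in each direction (12.5% in all). Aldh1a2, the main enzyme that makes retinoic acid in the embryo, was at 8.48, 8.25, 7.43, 8.36 and 7.16 in forelimbs and 9.54, 9.22, 9.17, 9.34 and 9.21 in hindlimbs. Forelimb replicates 3 and 5 were the lowest arrays, and all hindlimbs were above all forelimbs. Its level was 2.57-fold higher in hindlimbs (log2 change 1.36, SE 0.218; limma, adjusted p = 0.00475). Aldh1a3, a second enzyme of that step, was lower by a change of -0.38 (SE 0.0714, adjusted p = 0.0118).

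Wnt and FGF genes passed in 3 of 34 (8.82%) and 2 of 20 (10%). Among the Wnt genes Sfrp2, which encodes a secreted modulator of Wnt signals, was at 9.61, 9.58, 9.46, 9.38 and 9.25 in forelimbs and 10.15, 10.09, 10.21, 10.12 and 10.13 in hindlimbs (log2 change 0.68, SE 0.0714; limma, adjusted p = 0.000184). Nkd2 (0.34) and Wnt11 (-0.22) also passed, but lost their calls in 8 and 9 of the 10 fits without 1 array. Among the FGF genes the receptor gene Fgfr4, which muscle progenitors use, was lower at -0.49 (SE 0.0732, adjusted p = 0.00297). Fgf10, the mesenchymal ligand that drives outgrowth, was higher at 0.48 (SE 0.102, adjusted p = 0.0218). The Fgf10 call was lost without forelimb replicate 3 or 5 or hindlimb replicate 6 or 7 (up to 0.0668). Of 40 axon guidance genes, Plxna2, which encodes a semaphorin receptor, changed by -0.58 (SE 0.111, adjusted p = 0.0122), and the calls of Sema3d (-0.32) and Gfra1 (-0.39) were lost in 4 and 5 of the 10 such fits.

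Skeletal muscle genes made up the largest group of lower calls among the lists. Of 42 genes of the sarcomere and of contraction, 30 were lower in hindlimbs and none was higher, beside 2.52% lower and 0.642% higher among all genes. Their median change was -0.57, against 0.02 for all genes. The mean level of the list ran from 6.75 to 7.19 in forelimbs and from 6.16 to 6.52 in hindlimbs, without overlap. In whole limbs, fewer muscle cells and less RNA per muscle cell cannot be told apart. Myom2, which encodes an M-band protein, read 5.89, 5.75, 6.20, 6.06 and 6.22 in forelimbs and 5.13, 5.08, 5.10, 4.90 and 5.15 in hindlimbs (log2 change -0.95, SE 0.0917; limma, adjusted p = 0.00011). Tnnt2, the troponin T of heart and embryonic muscle, was at 8.51, 8.62, 8.53, 8.69 and 8.70 and 7.86, 8.11, 7.92, 7.76 and 7.80 in the same order (log2 change -0.72, SE 0.0738; adjusted p = 0.000167).

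The widest changes of muscle genes were those of the developmental myosins. Myh3, the embryonic myosin heavy chain, had levels of 8.31, 8.29, 8.82, 9.22 and 9.20 in forelimbs and 7.36, 7.68, 7.91, 6.88 and 7.85 in hindlimbs, 2.35-fold lower (log2 change -1.23, SE 0.219; limma, adjusted p = 0.00863). Myh8, the perinatal myosin heavy chain, read 6.77, 6.96, 7.56, 7.96 and 7.94 and 6.02, 6.37, 6.60, 5.42 and 6.37, 2.43-fold lower (log2 change -1.28, SE 0.251; adjusted p = 0.0145). In both genes the limbs did not overlap, hindlimb replicate 9 was the lowest array, and forelimb replicates 4 and 5 were the highest. The skeletal actin gene Acta1 (-0.75), the calcium pump gene Atp2a1 (-0.83) and the myosin light chain gene Myl1 (-0.59) passed as well. Male arrays alone gave 29 lower calls in this list and a median of -0.67.

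The factors that build muscle were lower with its contractile genes. Of 18 myogenic regulators, 8 (44.4%) were lower and none higher in hindlimbs, beside 2.52% lower among all genes. Their median change was -0.34. Myog, the bHLH factor that commits myoblasts to differentiate, was at 8.49, 8.29, 8.45, 8.67 and 8.45 in forelimbs and 7.69, 7.98, 7.89, 7.62 and 7.81 in hindlimbs (log2 change -0.67, SE 0.0833; limma, adjusted p = 0.000922). Mymk, the fusion protein myomaker, gave 7.82, 7.71, 8.10, 8.07 and 8.05 and 7.11, 7.33, 7.30, 7.02 and 7.32 (log2 change -0.73, SE 0.0914; adjusted p = 0.00095). All hindlimbs were below all forelimbs in both. Myod1 (-0.55), Myf6 (-0.51), Mef2c (-0.57) and the myoblast cadherin gene Cdh15 (-0.43) were lower too. At the synapse between nerve and muscle 6 of 12 genes (50%) were lower and none was higher (median -0.40). Without forelimb replicate 5 or hindlimb replicate 6 only 3 were lower. The 6 included the acetylcholine receptor subunits Chrng (-0.53, adjusted p = 0.00425), Chrna1 (-0.54, 0.0106) and Chrnb1 (-0.51, 0.0118).

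Promoters of these genes were searched for the letters CAGCTG, a form of the E-box that MYOD and myogenin bind and that reads the same on both strands. Of the 44 muscle and junction genes that were lower in hindlimbs, 35 matched a RefSeq promoter window, and 14 of them (40%) held the motif within 250 bases upstream of the start site. Among the other measured genes of those lists the share was 4 of 14 (28.57%), and among all 27025 windows of that length it was 12.74%. A match describes letters and does not show binding. The 3 windows with more than 1 match belong to Chrng, Chrna1 and Tnnt2, and are shown to place the motif near genes that moved together. They run from 250 to 1 bases before the start on GRCm38.p6, at chr1:87205561-87205810 (plus strand), chr2:73580339-73580588 (minus strand) and chr1:135836084-135836333 (plus strand), with the motif in capitals. Its first base lies at -155 and -132 in Chrng, at -92 and -44 in Chrna1 and at -223 and -157 in Tnnt2.
Chrng: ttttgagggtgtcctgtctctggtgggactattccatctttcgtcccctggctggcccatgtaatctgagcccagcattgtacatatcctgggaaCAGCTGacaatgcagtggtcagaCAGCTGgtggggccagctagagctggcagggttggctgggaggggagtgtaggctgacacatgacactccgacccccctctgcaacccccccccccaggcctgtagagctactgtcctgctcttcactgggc
Chrna1: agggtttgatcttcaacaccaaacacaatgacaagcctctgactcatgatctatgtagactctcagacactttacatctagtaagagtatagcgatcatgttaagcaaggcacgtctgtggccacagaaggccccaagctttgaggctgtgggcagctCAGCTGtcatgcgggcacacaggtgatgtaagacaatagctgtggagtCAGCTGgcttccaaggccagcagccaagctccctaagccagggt
Tnnt2: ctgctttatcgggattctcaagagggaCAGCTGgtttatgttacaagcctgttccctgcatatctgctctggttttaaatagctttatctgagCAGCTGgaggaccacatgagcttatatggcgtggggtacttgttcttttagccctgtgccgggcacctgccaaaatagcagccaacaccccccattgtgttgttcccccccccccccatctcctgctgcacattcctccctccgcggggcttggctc

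Bone-forming genes followed the same direction. Of 18 osteoblast and mineralisation genes, 11 (61.1%) were lower and none higher in hindlimbs (median -0.43), beside 2.52% lower among all genes. In the male arrays alone 9 were lower. The count was 5 without forelimb replicate 5, 6 without forelimb replicate 3 or 4 or hindlimb replicate 6, and 7 without hindlimb replicate 9. Phex, an endopeptidase of phosphate balance in bone, was at 7.25, 7.62, 7.82, 7.74 and 7.86 in forelimbs and 5.64, 5.81, 6.06, 4.82 and 5.78 in hindlimbs. Hindlimb replicate 9 was lowest, every hindlimb was below every forelimb, and Phex was 4.09-fold lower (log2 change -2.03, SE 0.189; limma, adjusted p = 8.81e-05). Ibsp encodes bone sialoprotein, an early protein of mineralising matrix, and read 3.94, 6.96, 6.49, 6.40 and 6.47 in forelimbs and 3.56, 3.92, 3.59, 4.06 and 4.11 in hindlimbs. Forelimb replicate 1 lay among the hindlimbs and the other 4 forelimbs were well above them, so the groups overlapped (log2 change -2.20, SE 0.424; adjusted p = 0.0132). Sp7, the factor that commits osteoblasts, changed by -0.43 (SE 0.0744, adjusted p = 0.00723) and Smpd3, a sphingomyelinase needed for mineralisation, by -0.64 (SE 0.0972, adjusted p = 0.00343).

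Cartilage showed less. Of 25 cartilage genes, 2 (8%, beside 2.52% of all genes) were lower and none higher, and the median was -0.21. They were Epyc, a proteoglycan gene of the growing cartilage (-1.29, adjusted p = 0.0279), whose call was lost without forelimb replicate 4 or hindlimb replicate 6 or 9, and Col11a1 (-0.38, 0.0366), which lost it in 6 of 10 such fits. The cartilage master factor Sox9, at 0.40 (SE 0.206, adjusted p = 0.336), and the main cartilage collagen Col2a1, at -0.26 (SE 0.128, adjusted p = 0.315), did not pass and were added after their values were seen. Of 11 genes of growth plate hypertrophy 4 (36.4%) were lower (2 without forelimb replicate 5). The 4 include Alpl (-0.47) and Ibsp, which are osteoblast list genes too, and Panx3, a channel gene of maturing chondrocytes. Panx3 read 5.54, 5.57, 5.55, 5.95 and 4.82 in forelimbs and 4.38, 4.41, 3.88, 4.06 and 4.83 in hindlimbs (log2 change -1.17, SE 0.194; limma, adjusted p = 0.0058), with forelimb replicate 5 just inside the hindlimb range. In a list of 17 joint interzone genes Sfrp2 was higher and the receptor gene Tgfbr2 lower (-0.40, adjusted p = 0.0122).

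Tendon and connective tissue genes were lower as well. Of 21 tendon and ligament genes, 9 (42.9%) were lower and none higher (median -0.37), beside 2.52% lower among all genes. In the male arrays alone 7 were lower. Thbs4, a matrix protein of tendon and muscle attachment, was at 7.05, 7.44, 7.53, 7.82 and 7.73 in forelimbs and 6.03, 6.10, 6.04, 5.45 and 5.96 in hindlimbs, 3.02-fold lower without overlap (log2 change -1.60, SE 0.146; limma, adjusted p = 8.81e-05). Col14a1, a collagen that sits on fibril surfaces, gave 7.37, 7.82, 8.16, 7.96 and 8.46 and 6.38, 6.73, 6.95, 6.37 and 6.92 (log2 change -1.29, SE 0.176; adjusted p = 0.00183). Col12a1 (-0.94), the tenascin gene Tnc (-0.71), the biglycan gene Bgn (-0.64) and the protease gene Htra3 (-0.44) also passed. Of 27 fibrillar and network collagens, 6 (22.2%) were lower and none higher (median -0.22), among them Col6a1 (-0.61). They also include Col12a1 and Col14a1 of the tendon list and Col1a1 of the osteoblast list. The collagen count was 3 without forelimb replicate 3, 4 or 5 or hindlimb replicate 6.

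Several of the widest changes fell outside the lists. Dpt, which encodes the matrix protein dermatopontin, read 5.17, 6.51, 6.30, 6.14 and 6.58 in forelimbs and 4.99, 4.54, 4.70, 4.36 and 4.85 in hindlimbs, with forelimb replicate 1 low (log2 change -1.45, SE 0.219; limma, adjusted p = 0.00332). Rtl3, a gene derived from a retrotransposon, was at 8.04, 8.17, 8.19, 8.19 and 8.22 and 6.64, 7.03, 7.11, 6.32 and 7.09 (log2 change -1.32, SE 0.131; adjusted p = 0.000137). Gpr50, an orphan receptor related to melatonin receptors, gave 4.38, 4.76, 5.29, 5.13 and 5.56 and 3.94, 3.89, 3.97, 3.74 and 3.73 (log2 change -1.17, SE 0.171; adjusted p = 0.00257). All 3 separated the limbs without overlap. Dpt and Gpr50 also passed in knockouts, at -1.31 and -1.46. The serpin gene Serpinb10 changed by -1.48 (adjusted p = 0.0411) but kept its call only without forelimb replicate 1 or hindlimb replicate 10.

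Higher in hindlimbs were also Car14, a carbonic anhydrase gene (0.70, SE 0.111; limma, adjusted p = 0.00434), and Tmem30b, which encodes a subunit of lipid flippases (0.68, SE 0.0945; adjusted p = 0.00197). Cbln1, a secreted synapse organiser, changed by 0.68 (adjusted p = 0.0223) and lost its call without forelimb replicate 2, 3, 4 or 5 or hindlimb replicate 6 (up to 0.066). Sox2, a factor of stem cells and neural tissue, was at 4.69, 5.04, 4.45, 4.78 and 4.83 in forelimbs and 5.68, 5.87, 6.05, 5.79 and 5.67 in hindlimbs, without overlap (log2 change 1.05, SE 0.103; adjusted p = 0.000123). Its change in knockouts was 1.41 (adjusted p = 1.15e-05). Sox2 was the one gene to pass in a list of 16 genes drawn up for trunk and pelvic organs, whose median was 0.11. The list is not limited to tissue next to the hindlimb, with Gata4, Nkx2-1, Nkx2-5 and Olig2 among its members. Its mean level ran from 4.83 to 4.97 in forelimbs and from 4.99 to 5.11 in hindlimbs, under the median gene level of 5.45. Of the 16 genes, 15 (93.8%) had a change above 0, beside 55.7% of all genes. None was below 0 in knockouts, where 9650 of all 19936 genes were. The cause was not tested.

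Of 24 mitosis genes, 22 (91.7%) had a change above 0, as did 55.7% of all genes, with a median of 0.18, and 3 passed, all higher in hindlimbs. These were the spindle gene Nusap1 (0.32), the ubiquitin ligase gene Ube2c (0.30) and the kinase gene Aurka (0.26), which lost their calls in 7, 6 and 8 of the 10 fits without 1 array and in the male arrays alone. Of 26 DNA replication genes, 24 (92.3%) were above 0, with a median of 0.14, and none passed. Without forelimb replicate 1, 6 mitosis genes and 4 DNA replication genes passed, all higher in hindlimbs. In a list of 13 early-stage growth and RNA-binding genes, Hmga2 was higher and Dlk1, Plagl1 and Igf2 were lower. Hmga2, a chromatin protein of young and dividing tissue, was at 8.14, 7.79, 7.76, 7.73 and 7.71 in forelimbs and 8.50, 8.53, 8.50, 8.66 and 8.40 in hindlimbs, without overlap (log2 change 0.69, SE 0.0848; limma, adjusted p = 0.000774). Dlk1, an imprinted growth gene, changed by -0.51 (SE 0.0976, adjusted p = 0.0126), while the calls of Plagl1 (-0.57) and Igf2 (-0.22) were lost in 7 and 9 of those fits.

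**Figure D3:**
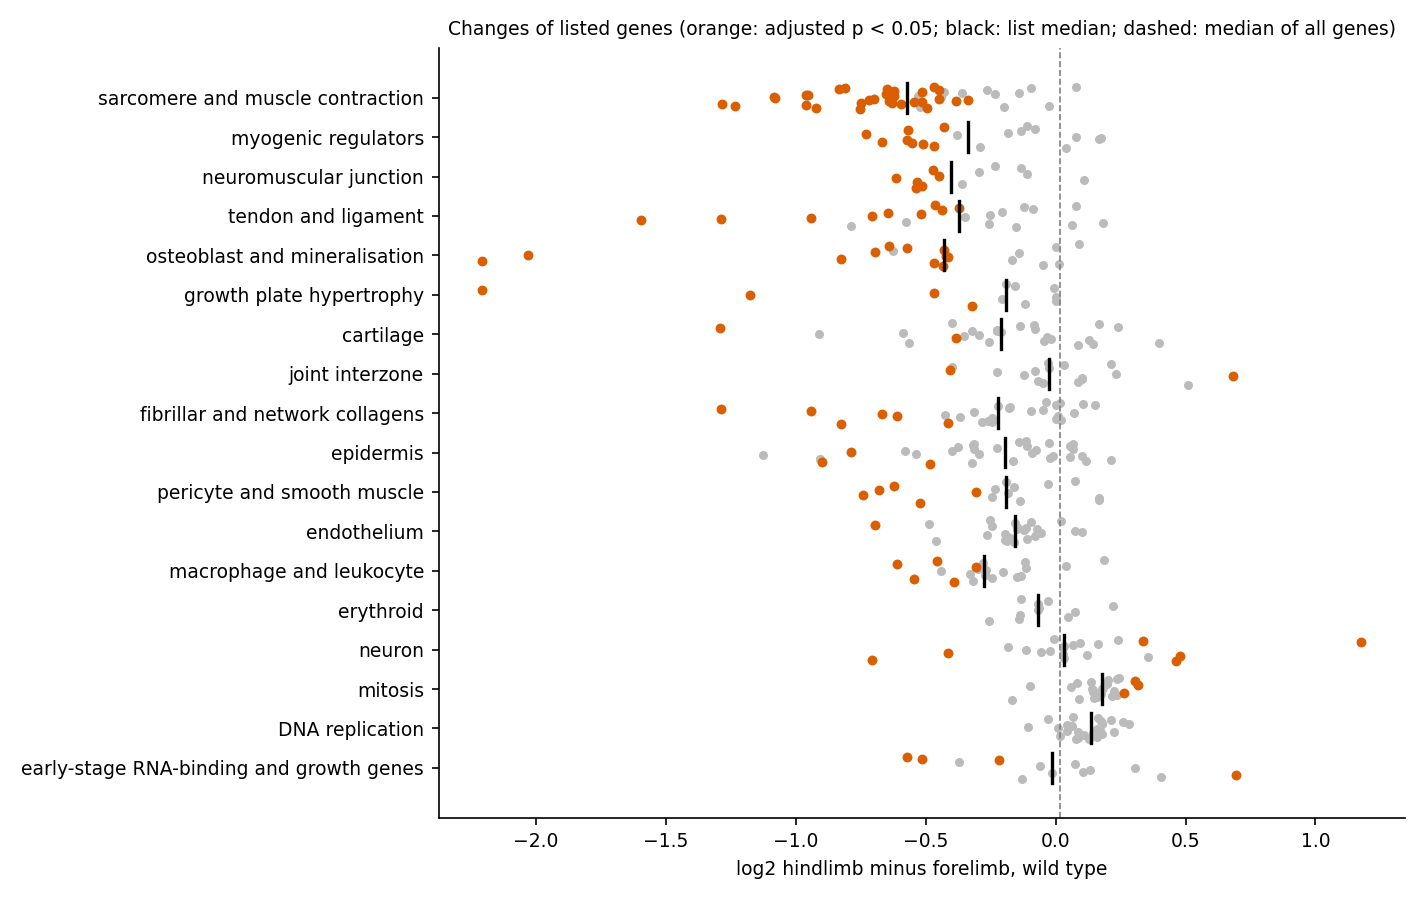
Log2 change, hindlimb minus forelimb, of each measured gene in 18 lists over the 10 wild-type arrays. Orange points passed an adjusted p under 0.05, black lines are list medians and the dashed line is the median of all genes (0.02); the muscle, tendon and bone lists lie to the left and the mitosis and DNA replication lists to the right.

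Markers of the other cells of the limb gave smaller counts, beside 3.16% of all genes that passed. The share was 33.3% in the pericyte list, 25% in the macrophage list and 9.38% in the epidermal list. It was 11.1% in the hypoxia list and 4% in the endothelial list, the latter close to that of all genes. Of 15 pericyte and smooth muscle genes 5 were lower and none higher, among them Rgs5, a pericyte regulator (-0.74, SE 0.116; limma, adjusted p = 0.0042), the smooth muscle actin gene Acta2 (-0.52, adjusted p = 0.00858) the intermediate filament gene Des (-0.62, 0.0125) and the potassium channel subunit gene Abcc9 (-0.68, 0.0118). Of 20 macrophage genes 5 were lower and none higher, but 12 were lower without forelimb replicate 1, and 2 without forelimb replicate 3, 4 or 5 or hindlimb replicate 6, 7 or 9. F13a1, a marker of resident macrophages, changed by -0.61 (SE 0.0854, adjusted p = 0.00208) and the receptor gene Csf1r by -0.39 (SE 0.0713, adjusted p = 0.0102). The other 3, Stab1, Mrc1 and Cx3cr1, lost their calls in 6, 6 and 8 of the 10 fits without 1 array. Among 25 endothelial genes the lymphatic factor Prox1 alone passed (-0.69, adjusted p = 0.0166), and not without forelimb replicate 4 or 5. Of 32 epidermal genes Krt15 (-0.90, adjusted p = 0.00825), Krt5 (-0.48) and Dsg3 (-0.79) were lower, and the calls of Krt5 and Dsg3 were each lost in 7 of those fits, while 8 epidermal genes were lower without forelimb replicate 1. Of the pericyte genes, Des is in the sarcomere list as well, and the fifth, Kcnj8 (-0.30), lost its call in 9 of those fits. Of 18 hypoxia and glycolysis genes Egln3 (-0.38) and Ndrg1 (-0.28) were lower, with calls lost in 5 and 8. None of 11 erythroid genes, 3 embryonic globins, 14 immediate early and stress genes or 4 sex-linked genes passed. A list of 13 muscle connective tissue genes held Tbx4, Tbx5 and Tbx3 as its calls.

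Nerve genes went both ways. Of 21 neuronal genes 4 were higher and 2 lower in hindlimbs (28.6% in all, beside 3.16% of all genes). Beside Isl1, Nefm, a neurofilament gene, was higher at 0.48 (SE 0.0657; limma, adjusted p = 0.00183), as were Isl2 (0.34) and Tubb3 (0.46), whose calls were lost in 5 and 4 of the 10 fits. Stmn2, a microtubule gene of growing axons, read 6.34, 6.24, 6.29, 5.93 and 5.89 in forelimbs and 5.52, 5.19, 5.54, 5.38 and 5.53 in hindlimbs, all lower (log2 change -0.70, SE 0.101; adjusted p = 0.00236), and Dcx, which encodes doublecortin, changed by -0.41 (adjusted p = 0.00236). A Schwann cell list of 13 held 3 calls (23.1%). The receptor gene Gfra3 was higher (0.50, adjusted p = 0.00802). Ngfr (-0.29) and Pmp22 (-0.45) were lower, with calls lost in 1 and 6 of the 10 fits. Of 9 melanoblast genes Pmel passed (0.40), and lost its call in 7 of the 10.

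To set limb identity beside developmental time, each array was given a maturity index. It is the mean log2 level of 93 genes of the sarcomere, osteoblast, hypertrophy and cartilage lists minus that of the 13 early-stage genes. The wild-type forelimbs had values of -0.56, -0.37, -0.37, -0.42 and -0.60 in replicates 1 to 5. The hindlimbs had -0.88, -0.79, -0.96, -1.11 and -0.79 in replicates 6 to 10, all below the forelimbs, with replicate 9 lowest. Without the sarcomere list in the index the limbs overlapped, since forelimb replicate 5 (-1.05) lay below hindlimb replicates 6 (-0.98), 7 (-0.89) and 10 (-0.91). The gap came from the differentiation lists, at 6.59 to 6.79 in forelimbs and 6.09 to 6.36 in hindlimbs. The early-stage list overlapped, at 7.08 to 7.23 and 7.07 to 7.20. In whole limbs the index cannot tell a younger limb from one with a smaller share of muscle or skeletal tissue. Knockout forelimbs lay at -0.95 to -0.61 and knockout hindlimbs at -1.18 to -0.79, so those groups overlapped in the index.

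**Figure D4:**
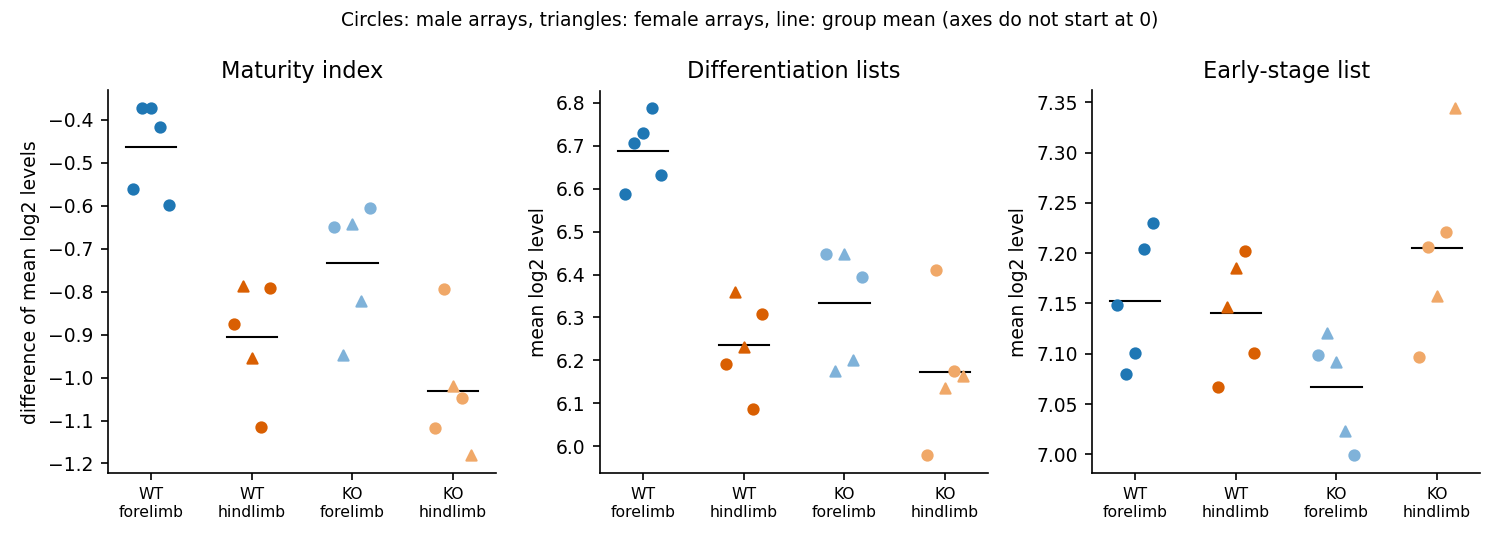
Maturity index (difference of mean log2 levels) and its 2 components in each of the 20 arrays, with circles for male and triangles for female arrays and a line at each group mean. Wild-type forelimbs lie above wild-type hindlimbs in the index and in the differentiation lists, and overlap them in the early-stage list.

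The limb comparison was then refitted over all 20 arrays with this index as a covariate, which asks how the limbs differ at an equal index. The number of genes past the threshold fell from 630 to 29 (0.145%), 22 higher (0.11%) and 7 lower (0.0351%) in hindlimbs, and 17 of the 29 were among the 630. The median SE of the 630 genes rose from 0.0879 to 0.155. The wild-type limbs do not overlap in the index, so an adjusted change extends beyond any index value that both wild-type limbs reached. The shares of a change that were kept are given as medians, with no error and no test. The index contains the sarcomere, osteoblast, hypertrophy, cartilage and early-stage genes themselves, Hmga2 and Dlk1 among them.

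Under the covariate the 4 selectors kept a median of 105% of their change, the 4 HoxA genes 104% and the 6 HoxC genes 108%. No HoxA gene passed under it, and neither did Hoxc4, Hoxc5 or Hoxc6. The 7 girdle and proximal factors kept 74.5%, close to the 67.1% of all 630 genes. Other lists also kept nearly all of theirs, with 107% for the 3 Wnt genes, 104% for the 3 muscle connective tissue genes (Tbx4, Tbx5 and Tbx3) and 98.8% for the 6 neuronal genes. Pitx1 had a change of 3.27 (limma, adjusted p = 4.41e-12), Tbx5 -3.91 (3.48e-11), Tbx4 2.03 (8.58e-07) and Isl1 1.06 (0.011). Also still past the threshold were Alx1 (-1.54), Hoxc11 (1.55), Hoxc10 (1.41), Hoxc9 (0.62), Mir196a-1 (0.89), Sox2 (0.96), Sfrp2 (0.86) and Grem1 (-0.94). Grm7, a glutamate receptor gene, stood at -0.82 (adjusted p = 0.011). Dcc, a netrin receptor gene, and Aard were named after their values were seen, and had changes of -0.83 and 0.87. Tbx18, Tbx3 and Hoxd8 had changes of -0.82, -0.59 and -0.65, close to -0.82, -0.64 and -0.65 without the covariate, but did not pass with its wider errors (0.127, 0.0585 and 0.0833). With the index over the 10 wild-type arrays alone, 5 genes passed. Of the selectors 2 were higher and 1 lower in hindlimbs, 1 HoxC gene was higher, and 1 girdle and proximal factor was lower. No Wnt, BMP or osteoblast gene passed in that fit.

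The 9 tendon genes kept a median of 25.1% of their change and the 5 pericyte genes 25%. Neither list entered the index as such, but the pericyte gene Des did, through the sarcomere list. Bgn went from -0.64 to -0.12, Htra3 from -0.44 to -0.05 and Rgs5 from -0.74 to -0.06. The 2 cartilage genes, Epyc and Col11a1, turned from -1.29 to 0.08 and from -0.38 to 0.18. The 11 osteoblast genes, which are in the index, kept 33.3%, and Panx3 went from -1.17 to -0.11. Phex, at -1.26 (limma, adjusted p = 0.0233), was the gene of that list that still passed. The 30 sarcomere genes kept 68.5%, the 8 myogenic regulators 67.9% and the 6 junction genes 87.7%. Over the 128 genes higher in hindlimbs the median was 89.7%, and over the 502 lower ones 62.7%. Hmga2, an index gene, went from 0.69 to 0.35.

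**Figure D5:**
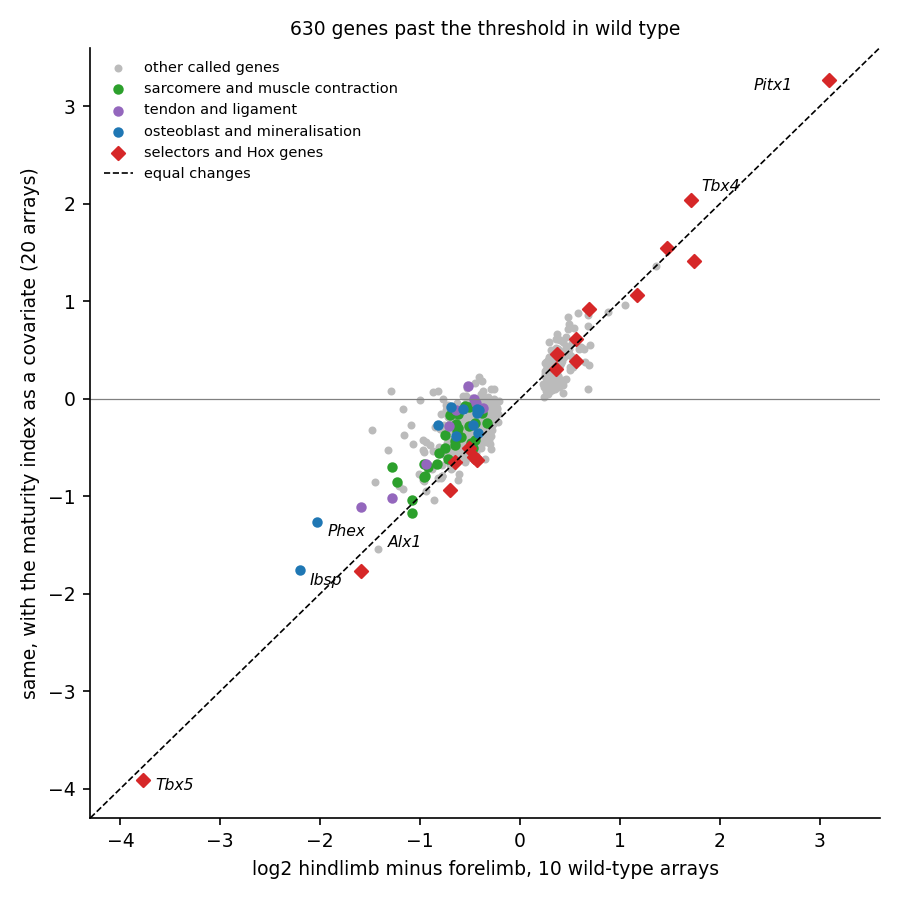
Log2 change, hindlimb minus forelimb, of the 630 genes past the threshold in the 10 wild-type arrays (horizontal) against the change with the maturity index as a covariate over 20 arrays (vertical); the dashed line marks equal changes. Selectors and Hox genes lie near the line, and most tendon and osteoblast genes lie between it and 0.

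The limbs of Lmx1b -/- embryos gave the same comparison in arrays that the wild-type fit did not use. Of the 630 genes, 601 (95.4%) had a change of the same sign there, against 67.3% of all genes. The knockout forelimbs held 2 male and 3 female embryos and the knockout hindlimbs 3 and 2. Over the 630 the median change was -0.40 in wild type and -0.19 in knockouts, but the genes were chosen for passing in wild type, which alone favours a larger wild-type value. The knockout limbs had 44 genes past the threshold, 15 higher (0.0752%) and 29 lower (0.145%) in hindlimbs. Every knockout hindlimb was above every knockout forelimb for 157 genes (0.788%) and below for 188 (0.943%). Of the 44 genes, 35 passed with the same sign in wild type, which is 5.56% of the wild-type calls and 79.5% of the knockout calls. They included the 4 selectors, Hoxc9, Hoxc10, Hoxc11, Hoxd8, Mir196a-1, Alx1, Tbx3, Tbx18, Sox2, Phex, Dpt, Gpr50, Stmn2 and Cbln1. No member of the sarcomere, myogenic, junction, tendon, cartilage or HoxA lists passed in knockouts, and the sarcomere list had a median change of -0.31 there. Outside these lists the muscle gene Lmod3, named after its values were seen, passed in both, at -0.56 in wild type and -0.45 in knockouts.

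The difference between the wild-type and the knockout limb changes was tested over all 20 arrays, and 4 genes passed (0.0201%). Alx1 changed by -1.42 in wild type and -0.59 in knockouts, a difference of -0.83 (limma, adjusted p = 0.0196). Knockout forelimbs read 5.05, 5.05, 5.12, 4.97 and 4.68 and knockout hindlimbs 4.34, 4.46, 4.41, 4.41 and 4.31, so the knockout forelimbs lay nearer to the wild-type hindlimbs than to the wild-type forelimbs. In the same order, Grm7 had changes of -0.79 and 0.02 (difference -0.81, adjusted p = 0.0138), the cell adhesion gene Cntn1 of -0.69 and 0.13 (-0.82, 0.0434), and Pax1 of -0.33 and 0.33 (-0.66, 0.0196). The knockout values of Grm7, Cntn1 and Pax1 did not pass on their own. When each of the 20 arrays was left out in turn, Grm7 kept its call in every fit (adjusted p up to 0.0448). Alx1 lost it in 5 fits, Pax1 in 8 and Cntn1 in 15 (up to 0.0638, 0.0656 and 0.131). The difference of Galnt13, which encodes an enzyme that starts O-linked sugar chains, did not pass (-0.54 and 0.12; -0.66, adjusted p = 0.0805). Grem1 had changes of -0.94 in wild type and -0.12 in knockouts, and the difference did not pass (-0.82, adjusted p = 0.0805), nor did that of Thbs4 (-1.24, 0.0805).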

How the data were processed

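Total RNA of single mouse limbs was labelled with biotin and measured on Affymetrix GeneChip 1.0 ST arrays, per the labels' protocols. The deposited values are linear intensities made by the authors with RMA, per the submitters' processing notes, whose version is not given in the sources used here, nor is a genome build. Here log2 was taken without a pseudocount or filter. Of 35512 probe sets, 21789 carried 1 gene symbol, 1621 several and 12101 none in the gene table, and 1 was empty. Symbols were updated through RefSeq, and the probe set with the highest wild-type mean stood for each of 19936 genes.

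Groups came from the sample descriptions. limma 3.58.1 (R 4.3.3; lmFit, eBayes with a constant prior) compared the 10 wild-type arrays, the 10 knockout arrays and, over 20 arrays, the difference. P-values were Benjamini-Hochberg adjusted over all genes, with 0.05 as the threshold. Sex was called male where the mean of the Y-linked genes exceeded 5. Tables were made in Python with pandas. Each array gives 1 value per gene, and the number of arrays limits the precision.

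The comparison, the genes and the 38 lists (725 entries, 42 without a probe set) were chosen with earlier results of these data known. The entries cover 687 distinct genes, so some genes count in more than 1 list. Called examples are Ibsp, Alpl, Mef2c, Des, Col1a1, Col12a1 and Col14a1. Named genes were the 15 largest changes each way, the selectors, the Hox genes past the threshold with 2 others per cluster, up to 6 genes per list by smallest p, and the 5 smallest p for the difference, without provisional and microRNA names. Others are named as chosen afterwards. On simulated arrays with 19936 genes the wild-type fit recovered 49.3%, 91% and 100% of log2 changes of 0.3, 0.6 and 1.2, and 3% of its calls were unchanged genes. The simulated noise was normal and independent for each gene and array, with no shared array, sex, maturity or embryo effect. These rates therefore need not hold for the real arrays. Alternatives were the prior, a level minimum, other scalings, all probe sets, array weights, covariates for side, sex, maturity and muscle, a replicate block, and leaving out arrays.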

Additional observations from a re-analysis of the deposited data

Results flagged for a closer look

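In 258 groups of 5 arrays, made of 128 named genes and the maturity index in forelimbs and in hindlimbs, 22 groups had 1 array far from the other 4, by a gap of over 0.71 of the group's range. Chance gives about 12.9 such groups (1 in 20). Of the 22, 7 were hindlimb replicate 9, the array with the lowest maturity index. It was the lowest hindlimb for Myom2 (log2 level 4.90), Mef2c (7.18), Thbs4 (5.45), Bgn (7.01), Dcx (6.12), Kcnj8 (4.58) and Pmp22 (8.62). Whether its maturity has a part in these values was not tested.

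Forelimb replicate 1 stood apart for 4 genes, highest for Hmga2 (8.14) and lowest for Ibsp (3.94), Rtl3 (8.04) and Kcnj8 (4.91). Forelimb replicate 5 also stood apart for 4, lowest for Tbx4 (5.58), Hoxa13 (6.25) and Car14 (5.61) and highest for Hoxc9 (4.62). Forelimb replicate 2 was lowest for Hoxb2 (5.15) and highest for Sp7 (5.59). Hindlimb replicate 8, from a female embryo, was highest for Igf2 (10.50) and lowest for Ube2c (7.49). Hindlimb replicate 6 was highest for Hoxa13 (7.59) and lowest for Cntn1 (3.82), and hindlimb replicate 7 was highest for Hoxa10 (8.03).

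The limb change differed between wild type and knockouts (limma, adjusted p under 0.05) for Alx1 by -0.83, for Cntn1 by -0.82, for Grm7 by -0.81 and for Pax1 by -0.66 on the log2 scale.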

How the results depend on the processing

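Of the 630 calls, 615 remained with an intensity trend in the prior, 593 after quantile normalization, 567 with centred arrays, 510 with side as a covariate and 461 with sex as one. The count moved to 1000 with array weights, 227 when limbs sharing a number were averaged, 173 at an adjusted p under 0.01 and 160 with a change of at least 1.5-fold. It was 29 with the maturity index over 20 arrays, 5 with it over 10 arrays and 11 with the muscle list as a covariate. Leaving out 1 array gave 297 to 925, with 318 without forelimb replicate 3, 318 without 4 and 297 without 5, and 299 without hindlimb replicate 6, 374 without 7 and 337 without 9. The share of calls that were higher was 20.3%, and 28.8% with centred arrays.

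The knockout count of 44 moved to 69 with an intensity trend, 117 with array weights, 70 with side, 123 in a fit of all 20 arrays, 7 in male arrays, 20 with the maturity index over 10 arrays and 20 at an adjusted p under 0.01. Leaving out 1 array gave 23 to 54 (forelimb replicate 1, 29; hindlimb replicate 8, 23; 9, 28; 10, 26). The difference, with 4 genes, gave 2 with the index, 2 at a level of at least 5, and 1 to 10 with 1 array left out. Of the wild-type arrays, forelimb replicate 1 gave 10 when left out, forelimb replicates 4 and 5 gave 2, and forelimb replicate 3 and hindlimb replicates 7, 8 and 10 gave 1. Of the knockouts, forelimb replicate 2 gave 2 and hindlimb replicate 7 gave 1. The limbs differed by -0.44 in the maturity index, by -0.33 without the sarcomere list, and by -0.59 with the mitosis and DNA replication lists in place of the early-stage list.

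Under the muscle covariate the sign turned for Lhx9 (-0.062), Plxna2 (0.032), Dlk1 (0.10), Plagl1 (0.17), Myh3 (0.0043), Myh8 (0.17), Myod1 (0.011), Chrna1 (0.014), Col6a1 (0.10), Serpinb10 (0.53), Mrc1 (0.072), Des (0.12) and Dsg3 (0.11). It turned under the maturity index over 10 arrays for Cbln1 (-0.14), Serpinb10 (0.019), Col11a1 (0.011), Kcnj8 (0.023) and Pmp22 (0.17), and over 20 arrays for Epyc (0.077), Col11a1 (0.18) and Pmp22 (0.16). The causes were not tested, beyond the covariates' overlap with limb and with the muscle genes they hold. The labels name no shared embryo, so the numbers were not taken as pairs. Correlations of deviations between limbs of the same side and number ran from -0.0652 to 0.151 in wild type and from -0.226 to 0.233 in knockouts. In wild-type right 2 (0.141) and right 3 (0.151) the forelimb was male and the hindlimb female, so those limbs did not share an embryo. Their correlations were the highest in wild type, so this measure cannot show which limbs shared an embryo. With the replicate block 723 genes passed in wild type, 533 of them among the 630, and 29 in knockouts.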
